A study of Mus musculus with 8 samples.

Results

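The microRNA miR-21 was followed through the 3 products of its family that serve as members here: miR-21a-5p and miR-21a-3p, the 2 arms of the mouse miR-21a hairpin, and miR-21c, a paralog. The members were chosen by name, as the microRNAs (miRNAs) that the array annotation calls mmu-miR-21a-5p, mmu-miR-21a-3p and mmu-miR-21c. They were 3 of the 1881 mouse miRNAs on the array and had 8 of its 4415 probes. RNA from kidney was compared between Akita mice, labelled with the strain C57BL/6-Ins2Akita/J, and control mice, labelled C57BL/6J and titled Mock, with 4 samples per group and 1 array per sample. All 8 samples were labelled male, with an age of 36 and no unit, and the labels name no treatment. The Akita allele of Ins2, an insulin gene, is dominant: its misfolded product harms the beta cells of the pancreas, so that the mice become diabetic without an injected toxin; the labels do not say whether the mice carried 1 or 2 copies. Whether the 4 samples of a group are from 4 different mice is not stated in the labels. The p-values below therefore measure only the spread among these samples, which may in part be technical.

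A miRNA is cut from a hairpin whose 5p and 3p arms pair with each other. One arm, the guide, is usually kept in an Argonaute protein and pairs with messenger RNAs through its seed near the 5′ end, while the other, the passenger, is usually degraded. For miR-21 the 5p arm is the guide. It is transcribed from the Vmp1 locus, increases in injured and fibrotic kidney downstream of TGF-beta signalling, and represses, among others, Smad7, an inhibitor of TGF-beta signalling, and Ppara, a regulator of fatty acid oxidation. Fibrosis itself was not measured in these samples.

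The mature sequences show which members can be told apart. They were taken from RefSeq (GRCm38.p6), in which all 3 members were found, with the seed, bases 2 to 8, in capitals. The related miR-21b, which is no member, is given for comparison.
miR-21a-5p: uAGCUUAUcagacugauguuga
miR-21a-3p: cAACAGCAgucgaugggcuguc
miR-21c: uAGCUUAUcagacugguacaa
miR-21b: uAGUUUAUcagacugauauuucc

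The 5p arm (22 bases, chr11:86584120-86584141, minus strand) and the 3p arm (22 bases, chr11:86584082-86584103, minus strand) lie 16 bases apart, within the span of the protein-coding gene Vmp1. miR-21c (21 bases, chr8:128278188-128278208, minus strand) lies within the span of the long non-coding RNA A930035F09Rik, and miR-21b (chr3:29636768-29636790, plus strand) within that of the protein-coding gene Egfem1. Among 1738 mature miRNAs of the table, the seed AGCUUAU was held by 2, miR-21a-5p and miR-21c, and the seed AACAGCA by miR-21a-3p alone. These counts cover that table only: on the array, probes of miR-590-5p hold the complement of AGCUUAU too. Counted from 1 at the 5′ end of miR-21a-5p, the substitutions towards miR-21c were A16G, G18A, U19C, U20A and G21A, so that 16 of 21 bases were identical and all differences fell outside the seed. Towards miR-21b they were C4U, G18A, G21U and A22C, the first of them in the seed.

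The probes decide what the array can resolve, since each is complementary to the 3′ part of its miRNA and differs from the others of the same miRNA only in how far it reaches towards the 5′ end. In the miR-21c probes, capitals mark the longest run of bases shared with the 20-base probe of miR-21a-5p.
miR-21a-5p, 19 bases: tcaacatcagtctgataag
miR-21a-5p, 20 bases: tcaacatcagtctgataagc
miR-21a-3p, 12 bases: gacagcccatcg
miR-21a-3p, 13 bases: gacagcccatcga
miR-21a-3p, 14 bases: gacagcccatcgac
miR-21a-3p, 15 bases: gacagcccatcgact
miR-21c, 18 bases: ttgtacCAGTCTGATAAG
miR-21c, 19 bases: ttgtacCAGTCTGATAAGC

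The miR-21a-5p probes pair with bases 3 or 4 to 22 of the miRNA, and the miR-21c probes share with the 20-base probe a run of 12 or 13 bases. The run CAGTCTGATAA occurred in the probes of 3 miRNAs of the array: miR-21a-5p, miR-21b and miR-21c. The miR-21a-3p probes are shorter, at 12 to 15 bases, and have a GC content of 60.0% to 66.7%, against 36.8% and 40.0% for the miR-21a-5p probes. A level read from one arm's probes is therefore not on the same scale as a level read from the other arm's.

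Of the 1881 miRNAs, 257 were above the array's own background on all 8 arrays and 1531 on none, and no spot was saturated. The comparison of groups covered miRNAs that exceeded background on every array of 1 or both groups, which left 285, with miR-21a-5p as the single member among them. The kidney label was checked against tubule miRNAs: 3 of 4 (miR-204-5p, miR-194-5p and miR-192-5p) were tested and miR-215-5p was below background on all 8 arrays, as were 3 of 6 miRNAs of other organs (miR-375-3p of islets, miR-133a-3p of muscle and miR-124-3p of neurons). Of the other 3, miR-122-5p of liver was above background on 3 control and 2 Akita arrays, miR-1a-3p of muscle on 3 and 3, and miR-9-5p, a neural miRNA, on all 8, at a mean log2 signal of 5.83 in control and 5.56 in Akita samples. All arrays lay on 1 slide, the controls in one row and the Akita samples in the other, so slide row and genotype cannot be told apart. Signal differed between the groups before any scaling: the 75th percentile over the probes above background on all arrays, later used to scale the arrays, was 507 ± 10.3 fluorescence units in control and 421 ± 35.2 in Akita samples (SD, n = 4), 17.0% lower (exact two-sided permutation test, p = 0.0286, the smallest that 4 against 4 can give; 0.0571 after Benjamini-Hochberg adjustment over 8 measures). The spike-in RNAs added at labelling (1750 ± 55.8 and 1721 ± 83.9; p = 0.571, exact) and at hybridisation (29535 ± 1759 and 28784 ± 421; p = 0.514, exact) overlapped between the groups.

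miR-21a-5p was one of the brightest miRNAs of these kidneys. Its summed probe signal before scaling was 8303, 8458, 8131 and 8818 fluorescence units in control samples 1 to 4, and 8762, 7899, 8201 and 7954 in Akita samples 1 to 4. The groups overlapped, with the highest value in a control sample and the lowest in an Akita sample. The means were 8428 ± 293 and 8204 ± 394 (SD, n = 4), 2.65% lower in Akita samples (exact permutation test, p = 0.4; adjusted p = 0.571). By signal within each array it stood 12th or 13th in the control samples (ranks 12, 13, 12 and 13) and 9th or 10th in the Akita samples (ranks 9, 10, 9 and 9). In bulk tissue, fewer cells of a type and less of the RNA per cell cannot be told apart.

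After division of every array by that 75th percentile, the log2 signal of miR-21a-5p was 12.92, 12.92, 12.85 and 12.93 in the control samples and 13.14, 13.03, 13.09 and 13.28 in the Akita samples. On this scale every Akita sample was above every control sample, and Akita sample 4, which also had the lowest 75th percentile, was the highest. Non-overlapping, higher values in Akita samples were found for 13.7% of the 285 miRNAs. The means were 12.90 ± 0.04 and 13.14 ± 0.11 (SD, n = 4), a log2 difference of 0.23 ± 0.07 (SE; 95% interval 0.07 to 0.39), or 1.17-fold. In the limma fit over 285 miRNAs the adjusted p was 0.0587 and missed the threshold of 0.05, which 14.7% of the tested miRNAs passed (8.42% higher and 6.32% lower in Akita samples). The single-value exact permutation p was 0.0286. In the order of log2 differences, 56 of the 285 miRNAs lay above miR-21a-5p.

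The direction of this difference depended on the reference. The log2 difference between Akita and control samples was -0.04 with no scaling, -0.01 where the arrays were scaled to the labelling spike-ins, and -0.0040 where they were scaled to the hybridisation spike-ins, with limma adjusted p-values of 0.616, 0.817 and 0.969. Scaled to the labelling spike-ins, the log2 signal was 13.06, 13.05, 12.97 and 13.03 in control samples and 13.01, 12.99, 13.05 and 13.00 in Akita samples, so that the Akita values lay inside the control range. These 3 references moved the median of all tested miRNAs to -0.21, -0.18 and -0.17, from 0.06 with the percentile scaling. Set against that median, miR-21a-5p was 0.17 higher in Akita samples in each of these 4 cases. That follows from the arithmetic, since dividing an array by 1 number shifts all its log2 values above the floor alike. Of the 8 scalings tried, quantile and cyclic loess are not of that kind, and they gave 0.12 and 0.18. After normexp background correction, an alternative that changed the background and not the scaling, the excess over the median was 0.07. There miR-21a-5p was at 0.20 and the median of all tested miRNAs at 0.13.

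**Figure D1:**
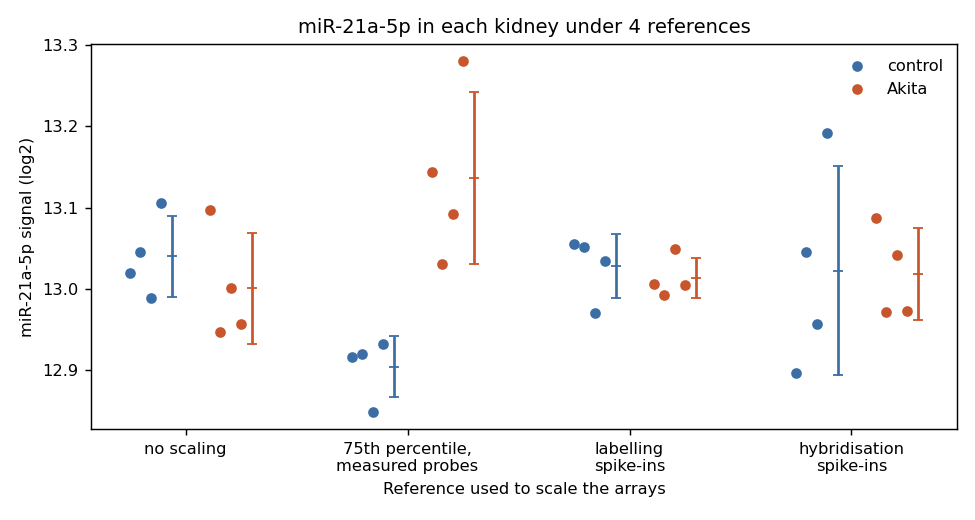
Log2 signal of miR-21a-5p (y axis) in each of the 4 control and 4 Akita samples under 4 references (x axis). Points are samples, horizontal marks beside them are group means and vertical bars are the SD. With the 75th percentile the groups are apart (12.85 to 12.93 and 13.03 to 13.28), while with no scaling or with either set of spike-ins they overlap.

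**Figure D2:**
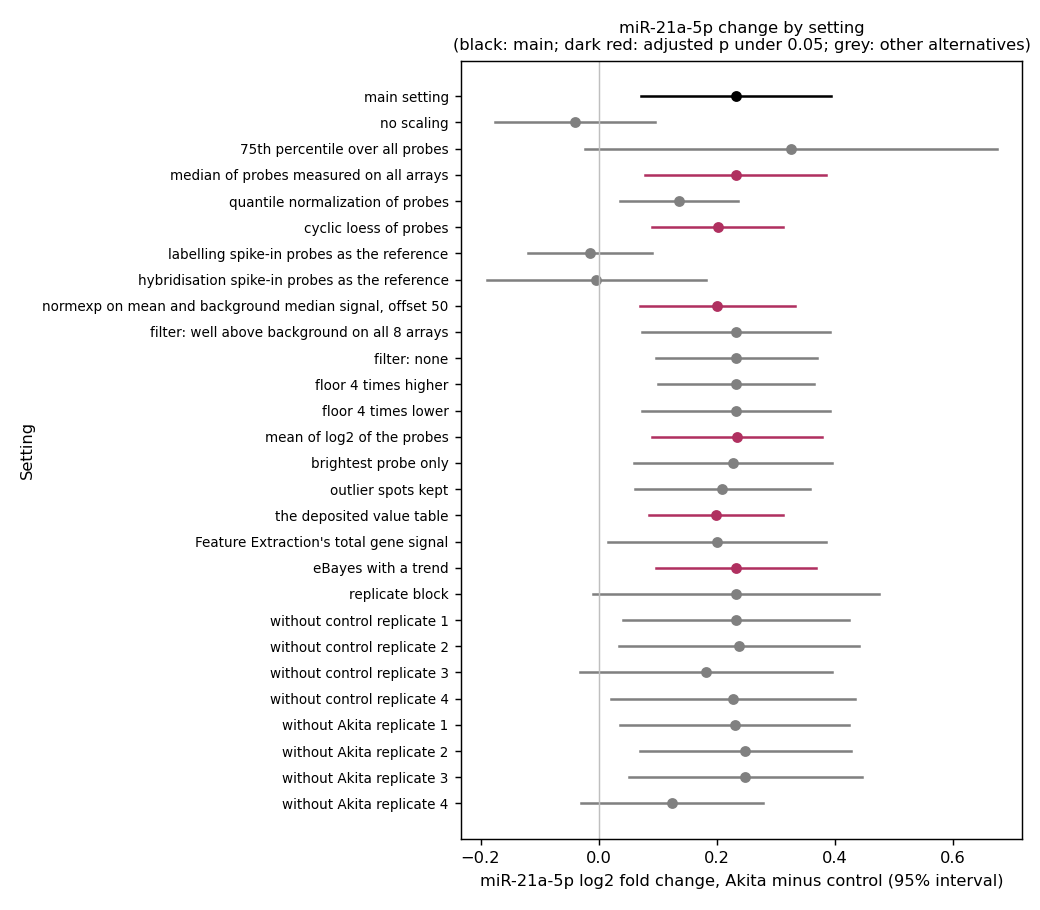
Log2 fold change of miR-21a-5p, Akita minus control (x axis), with its 95% interval, under the reported setting and its alternatives (y axis), 8 of which leave out 1 sample. Of 27 alternatives, 24 lie above 0, though those of filter, floor, moderation and block could not change the value. The 3 below 0 use no scaling or spike-ins as the reference.

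Without Akita sample 4 the log2 difference was 0.12 (limma, adjusted p = 0.281), and it was at most 0.25 when any other sample was left out. The difference was called in 0 of these 8 fits, with limma adjusted p-values from 0.0901 to 0.281. The unadjusted p was under 0.05 in all but those without control sample 3 and without Akita sample 4. The groups stayed apart in each fit, which adds no support. Groups that are apart with all samples could come to overlap here only through the changed scaling.

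Quantities formed within an array need no scaling between arrays. The share of the summed above-background signal that came from miR-21a-5p was 1.13%, 1.07%, 1.10% and 1.16% in control samples and 1.21%, 1.17%, 1.22% and 1.21% in Akita samples. Each Akita share was above each control share. The means were 1.11 ± 0.0362% and 1.20 ± 0.0206% (SD, n = 4), a difference of 0.0907 percentage points, or 8.16% of the control share (exact permutation test, p = 0.0286, the smallest possible; 0.0571 adjusted over 8 measures). The denominator is dominated by 2 very bright probe sets, those of miR-6366 and miR-3963, which held 56.0% to 60.6% of the signal. Without them, a comparison added after the data were seen, the share was 2.57 ± 0.0739% in control and 2.92 ± 0.105% in Akita samples, again without overlap (exact permutation p = 0.0286). A share is relative: the total signal in its denominator was 10.0% lower in Akita samples (exact permutation p = 0.0286, adjusted 0.0571), while the miR-21a-5p signal was 2.65% lower.

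The 3 miRNAs next above miR-21a-5p in mean signal were miR-30a-5p, let-7c-5p and let-7f-5p, and the 3 next below were miR-26a-5p, miR-29a-3p and let-7b-5p. These belong to abundant families (let-7, miR-26, miR-29 and miR-30), of which miR-29 is known to repress collagens. The log2 ratio of miR-21a-5p to the mean of these 6 was -0.21, -0.34, -0.35 and -0.27 in control samples and -0.12, -0.05, -0.10 and 0.02 in Akita samples. Every Akita ratio was above every control ratio, by 0.23 on average (means -0.29 ± 0.07 and -0.06 ± 0.06, SD, n = 4; exact permutation p = 0.0286, 0.0571 adjusted over 8 measures), a comparison that was added after the data were seen. Taken singly, the ratio was higher in Akita samples without overlap for let-7c-5p (0.30), miR-26a-5p (0.29), let-7b-5p (0.28), miR-29a-3p (0.25) and let-7f-5p (0.19), and overlapped between groups for miR-30a-5p (0.08).

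Over all 256 other miRNAs above background on every array, the ratio of miR-21a-5p to the other was on average higher in Akita samples for 208 and lower for 48. It was higher without overlap for 91 and lower without overlap for 5. The same count made for each of the 257 miRNAs had a median of 23 higher and 9 lower, and 17 of the 257, miR-21a-5p among them, had at least 91 higher. Among the 20 brightest miRNAs the log2 differences after percentile scaling ran from -0.70 to 0.23 with a median of 0.08; miR-21a-5p had the highest of these 20, and limma called 0 of them.

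**Figure D3:**
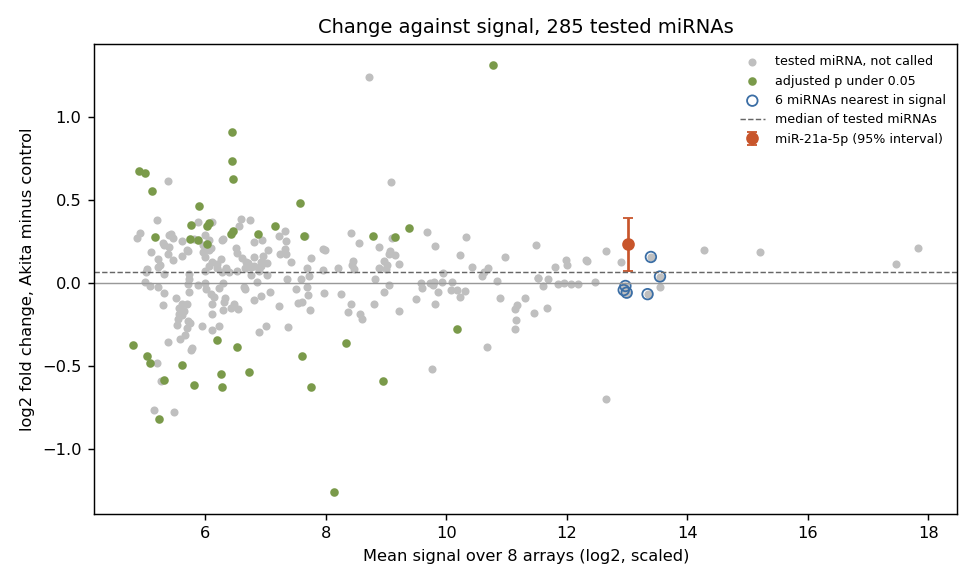
Log2 fold change, Akita minus control (y axis), against mean log2 scaled signal over 8 arrays (x axis) for the 285 tested miRNAs; each point is a miRNA and the dashed line is their median of 0.06. miR-21a-5p lies far to the right at 13.02, with a change of 0.23 that is small beside those of many dimmer miRNAs.

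The 2 probes of miR-21a-5p were read separately. The 20-base probe gave 5131, 5218, 4985 and 5468 fluorescence units before scaling in control samples and 5359, 4803, 5093 and 4917 in Akita samples. The 19-base probe gave 3172, 3240, 3146 and 3351 in control samples and 3403, 3096, 3108 and 3038 in Akita samples. For both probes the unscaled values of the groups overlapped, and the longer probe was the brighter on every array. Each had 15 spots per array. The coefficient of variation over an array's spots was 3.08% to 7.20% for the 20-base probe and 1.39% to 3.30% for the 19-base probe.

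The ratio of the 20-base to the 19-base probe, which needs no scaling, was 1.62, 1.61, 1.58 and 1.63 in control samples and 1.57, 1.55, 1.64 and 1.62 in Akita samples. The groups overlapped (1.61 ± 0.0197 and 1.60 ± 0.0401, SD, n = 4; exact permutation p = 0.514, adjusted 0.571). After percentile scaling the log2 difference between Akita and control samples was 0.23 ± 0.07 (SE) for the 20-base probe and 0.24 ± 0.07 for the 19-base probe. Both were non-overlapping and higher in Akita samples, which 13.3% of the 511 tested probes were. Neither passed limma's threshold (adjusted p = 0.0715 and 0.0530 over 511 probes), which 10.8% of probes did. With no scaling the differences were -0.04 and -0.03 (limma, adjusted p = 0.584 and 0.702). Probes of one miRNA read the same labelled RNA and are not replicates.

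**Figure D4:**
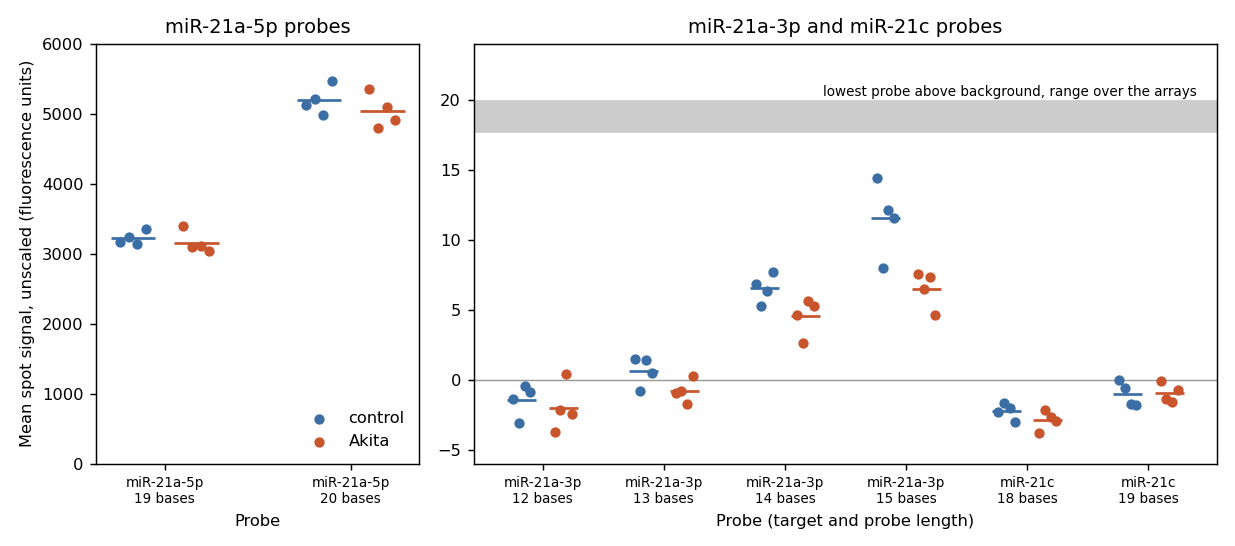
Mean spot signal before scaling (y axis, fluorescence units) of each probe (x axis) in the 4 control and 4 Akita samples; each point is 1 array, with the miR-21a-5p probes on the left and those of miR-21a-3p and miR-21c on the right, on a different scale. The miR-21a-5p probes lie between 3038 and 5468 and the others at or below 14.4, with the values of the miR-21a-3p probes larger for the 14- and 15-base probes.

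miR-21a-3p, the passenger arm, was not well above background on any array. Of its 240 spots over the 8 arrays, 64 each for the 12- and 13-base probes and 56 each for the 14- and 15-base probes, 0 were above background. The probe means before scaling ran from -3.74 to 0.42 fluorescence units for 12 bases, from -1.76 to 1.46 for 13, from 2.60 to 7.73 for 14 and from 4.60 to 14.4 for 15. These ranges lie higher for the 2 longer probes than for the 2 shorter ones. For the 15-base probe the values were 14.4, 7.97, 12.1 and 11.6 in control samples and 7.59, 6.48, 7.36 and 4.60 in Akita samples, all below 17.7, the lowest signal of any probe above background on any array. Before scaling the control values of that probe were all above the Akita values, and after percentile scaling the groups overlapped (control sample 2 at 7.30, Akita samples 1 and 3 at 7.84); no test is given, since none was measured above background.

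Summed over its 4 probes, miR-21a-3p stood at 21.4, 9.36, 19.5 and 18.9 fluorescence units in control samples and 7.52, 6.08, 11.6 and 7.67 in Akita samples, and the groups overlapped. No fold change between groups is given. The 5p signal was set on each array against the higher of the 3p sum and the lowest signal of a probe above background. As a mean of log2 values, this put the fluorescence of the 5p probes at least 420-fold above that of the 3p probes in control samples and 445-fold in Akita samples. The bounds of single arrays ran from 389 to 453 in control and from 411 to 478 in Akita samples. These bounds compare probes of different length and GC content and are not ratios of molecules. The lowest signal above background is that of a single probe, so a limit for summed probes would give smaller folds. The change of the arm ratio between groups could not be tested.

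A one-sided reading of this kind was common on the array. Of 723 hairpins with both arms on the array, 20 had both arms above background on all 8 arrays, 87 had the 5p arm on all 8 and the 3p arm on none, and 51 the reverse. Among those 87, miR-21a had the brightest 5p arm (mean log2 scaled signal 13.02), before let-7g (12.47) and let-7d (11.81). In the 24 hairpins with both arms tested, limma on the log2 ratio of 5p to 3p called 8.33%. The 2 largest changes were those of miR-7047 (-0.42 ± 0.19 SE, adjusted p = 0.164), not called, and miR-652 (0.38 ± 0.07, adjusted p = 0.0111). The change of miR-652 was towards the 5p arm in Akita samples. The other called hairpin was let-7b (-0.36 ± 0.08, limma adjusted p = 0.0282), towards the 3p arm.

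miR-21c was not above background on any array either, with 0 of 120 spots for each of its 2 probes. The probe means before scaling ran from -3.83 to -1.65 fluorescence units for the 18-base probe and from -1.81 to -0.00343 for the 19-base probe. Summed, they were -2.34, -2.28, -3.77 and -4.85 in control samples and -3.91, -3.54, -4.22 and -3.69 in Akita samples. All 8 sums were below 0 after the scanner software's background subtraction, and the groups overlapped.

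The 13-base run that the 19-base miR-21c probe shares with the 20-base miR-21a-5p probe thus came with no signal, on arrays where the miR-21a-5p probe read 4803 to 5468. The miR-21b probes, which share 13 bases with it in the run ATCAGTCTGATAA, were also below background on all arrays, with probe means from -1.81 to 1.16. The complement of the shared seed, ATAAGCT, was found in the probes of 1 miRNA of the array, miR-590-5p, in 2 of its 3 probes, and all 3 were below background on all arrays as well. The 22-base probe of miR-590-5p ends 1 base beyond ATAAGCT. If that probe covers the whole miRNA, AGCUUAU starts at base 2 of miR-590-5p, which then has the same seed as miR-21a-5p and miR-21c. The lowest signal of a single probe above background was put in place of miR-21c. Against it, the summed fluorescence of miR-21a-5p was, as a group mean, at least 433-fold higher in control samples. In Akita samples it was 445-fold higher (single arrays 416 to 453 and 411 to 478). A limit for summed probes would give smaller folds.

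The miRNAs whose log2 scaled values were most like those of miR-21a-5p over the 8 arrays, by Pearson correlation, were miR-24-2-5p (r = 0.97), miR-222-3p (0.96), miR-221-3p (0.95), miR-551b-3p (0.94) and miR-139-5p (0.94). The arrays share the difference between groups and each array's scaling factor, so these r are a description and were given no p. miR-222-3p and miR-221-3p come from 1 cluster and are known for repressing the cell cycle inhibitor p27. miR-221-3p was 0.33 higher in Akita samples on the log2 scale (limma, adjusted p = 0.0336), miR-222-3p 0.28 (0.0360) and miR-139-5p 0.30 (0.0342). miR-24-2-5p, at 0.19, missed the threshold (0.0933). Of all 285 miRNAs, 8.42% were called higher. Likeness to miR-21a-5p, whose scaled values set the groups apart, favours miRNAs that are higher in Akita samples. These calls are therefore no result apart from the choice. For miR-551b-3p, above background on 4 Akita and 0 control arrays, no fold is given: all control values were set to the floor of 4.56, and its difference was 1.13 with a floor 4 times lower and 0 with a floor 4 times higher. Its r rests on those floor values too. The calls of miR-221-3p, miR-222-3p and miR-139-5p were lost with no scaling, where their log2 differences were 0.06, 0.01 and 0.02 (limma, adjusted p = 0.488, 0.892 and 0.823), and with either set of spike-ins. With 1 sample left out, miR-221-3p and miR-222-3p were each called in 1 of 8 fits, that without Akita sample 2, and miR-139-5p in 0 (limma, adjusted p from 0.0382 to 0.171 over the 3 miRNAs). When each group's mean was first removed, the most like miR-21a-5p were miR-212-3p (r = 0.97), miR-350-3p (0.94) and miR-7050-5p (0.94).

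Other miRNAs tied to renal fibrosis were taken from a list of 16 chosen as promoting it, miR-21a-5p and miR-21a-3p included. Its miR-192-5p is also counted among the tubule miRNAs. In this list 7 were tested and 7 were below background on all 8 arrays. Of the 7 tested, 1 was called higher in Akita samples (8.42% of all 285 were) and 0 lower (6.32%). The median log2 difference was 0.18, against 0.06 over all 285. With no scaling 1 was called higher and 2 lower, where 1.75% of all 285 were called higher and 36.5% lower. The list's median then turned to -0.09 and that of all 285 to -0.21. The list's median was 0.05 without Akita sample 4 and 0.09 without control sample 3. The called one was miR-34a-5p, a p53 target that represses Sirt1, at 10.12 ± 0.10 in control and 11.43 ± 0.16 in Akita samples (SD, n = 4), a log2 difference of 1.31 ± 0.09 (SE; limma, adjusted p = 5.4e-05), and at 1.04 with no scaling (adjusted p = 0.000118). The others were miR-212-3p (0.21), miR-214-3p (0.18), miR-199a-5p (0.08), miR-199a-3p (0.00351) and miR-192-5p (-0.0090), with adjusted p-values from 0.169 to 0.992. Set beside them, miR-21a-5p had the second largest log2 difference of the 7.

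Another list held 16 miRNAs chosen as restraining fibrosis, of which miR-204-5p is also counted among the tubule miRNAs. All were tested, and 2 were called higher in Akita samples (against 8.42% of all 285) and 0 lower. The median log2 difference was 0.12, or 0.03 without Akita sample 4 and 0.07 without control sample 3. With no scaling 0 were called higher and 6 lower, where 1.75% of all 285 were called higher and 36.5% lower, and the list's median was -0.16. The called ones were miR-200c-3p (0.28, limma adjusted p = 0.0324) and miR-141-3p (0.28, 0.0466), of the miR-200 family, which represses the mesenchymal factors Zeb1 and Zeb2; with no scaling both lay at 0.01 (0.0100 and 0.00687; adjusted p = 0.945 and 0.966). With 1 sample left out, miR-200c-3p was called in 0 of 8 fits and miR-141-3p in 1, that without control sample 2 (limma, adjusted p from 0.0409 to 0.207 over both). Neither was called with the replicate block (adjusted p = 0.171 and 0.173) or in the authors' deposited table (0.0663 and 0.107). The other 14, of the let-7, miR-26, miR-29, miR-30, miR-200 and miR-204 families, lay between -0.09 and 0.19.

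miR-21a-5p is abundant in leukocytes as well as in kidney cells, and leukocyte miRNAs were lower in the Akita samples. Of 7 leukocyte miRNAs, all were tested, 6 were called lower in Akita samples (against 6.32% of all 285) and 0 higher, with a median log2 difference of -0.55. With no scaling all 7 were called lower (median -0.82; 36.5% of all 285), while after normexp background correction 2 were (median -0.14; 2.81% of all 285). With the percentile taken over all probes 1 was called lower (median -0.46). The summed scaled signal of the 7 was 1496 to 1838 in control samples and 912 to 1057 in Akita samples. The largest difference was that of miR-146a-5p, a brake on innate immune signalling (-1.26, limma adjusted p = 0.000735). Their part in the value of miR-21a-5p was not tested.

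Of 4 erythroid miRNAs, 1 was tested, miR-451a (1.24, limma adjusted p = 0.237). Its log2 difference was 0.69 without control sample 1 (adjusted p = 0.475) and 1.92 without control sample 3 (0.0260). For the 4 together, the summed scaled signal was 86.7 to 1204 in control and 581 to 772 in Akita samples; miR-144-5p and miR-486a-5p were below background on all 8 arrays. The endothelial miRNAs (2 of 2 tested, median 0.13), the smooth muscle miRNAs (2 of 2 tested, median -0.01) and the tubule miRNAs (3 of 4 tested, median -0.09) had 0 calls in either direction by limma; with no scaling the medians were -0.14, -0.28 and -0.36, and the 2 smooth muscle and 3 tubule miRNAs were among the 36.5% of all 285 called lower.

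The authors' deposited value table holds, for each miRNA and sample, a ratio to that miRNA's median over the 8 samples. For miR-21a-5p the ratio was 0.935, 0.951, 0.934 and 0.967 in control samples and 1.07, 1.03, 1.10 and 1.15 in Akita samples, without overlap, a log2 difference of 0.20. For miR-21c it was 0.951, 0.950, 0.970 and 0.700 in control samples and 1.03, 1.11, 1.13 and 1.22 in Akita samples, also without overlap, a log2 difference of 0.34. The miR-21c values came with no measured signal: they equal the table's entry for blank spots in every sample. The entry for blank spots thus differed between the groups by 0.34, more than the 0.20 of miR-21a-5p. To within rounding, 1437 of the table's 1881 miRNAs equalled that entry. They are the 1437 that the scanner software listed at its minimum of 0.1 on all 8 arrays. A value that was the same on every array can differ between samples only through the authors' processing, so the 0.34 is no difference in signal. Control sample 4, at 0.700, stood furthest from the other controls. Its array alone had an effective feature size fraction of 0.794. For miR-21a-3p the ratio was 12.7, 0.890, 0.908 and 0.655 in control samples and 0.966, 1.04, 1.06 and 1.14 in Akita samples, and the first of these came from the 1 array on which the software listed a total of 1.43 in place of 0.1.

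**Figure D5:**
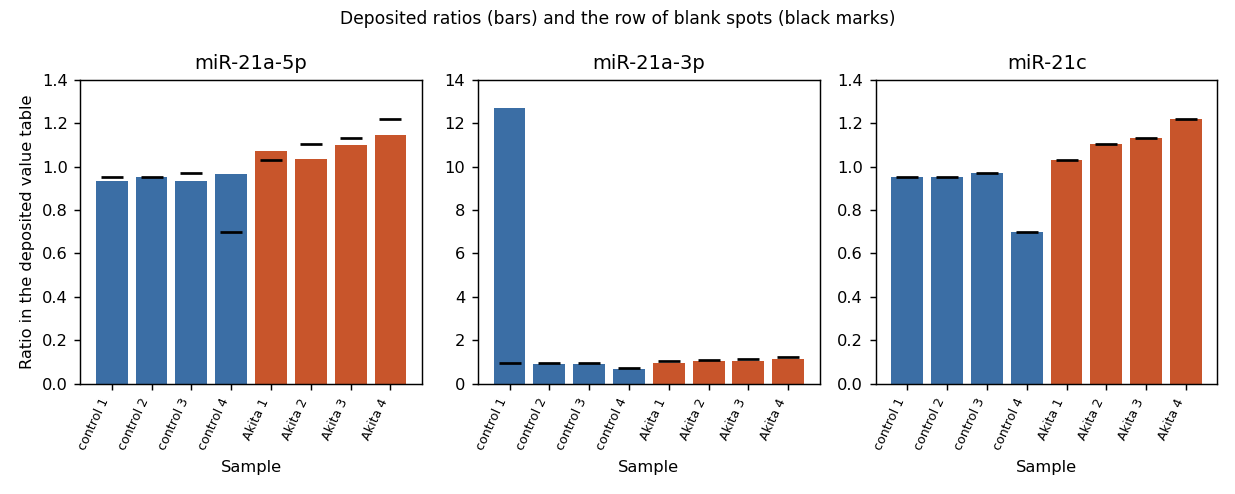
Ratio in the authors' deposited table (y axis) for the 3 members in each of the 8 samples (x axis, bars), with the table's entry for blank spots as black marks. The miR-21c bars end at the marks in all samples (0.700 to 1.22), those of miR-21a-5p do not, and the miR-21a-3p panel, which has an axis of its own, is dominated by control sample 1 at 12.7.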

How the data were processed

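Kidney RNA, 100 ng per labelling with Cy3, was read on Agilent mouse miRNA arrays in 1 colour, per the labels' protocols. The deposited scanner files hold linear intensity per spot, extracted with Agilent Feature Extraction 12.0.3.1 per the file headers, which took a fitted spatial surface off as background, so that an intensity may fall below 0, and did not normalize arrays to each other. The deposited value table holds a linear ratio per miRNA, normalized by the authors (the steps are not stated in the labels or headers used here), and was used as an alternative.

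Outlier spots (2.03% to 3.02% per array) were left out, spots averaged per probe, arrays divided by their 75th percentile over the 451 probes above background on all 8 arrays, probes of a miRNA summed, sums under 23.65 set to that floor, and log2 taken. A probe counted as above background where at least 0.5 of its spots did. Groups came from the titles. The two-sided comparison used lmFit and eBayes of limma 3.58.1 (R 4.3.3; degrees of freedom 6 residual, 9.16 total), Benjamini-Hochberg over 285 miRNAs, threshold 0.05; the script was tested on simulated data. Precision is limited by the number of arrays. Sequences are RefSeq's and the array annotation's, handled in Python 3.11.15.

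The members and lists were chosen with earlier results of these data known. Named were the members, the 5 miRNAs most correlated with miR-21a-5p and the 3 most correlated after removing group means. Named too were 3 neighbours in signal on either side, the 2 largest arm changes, the called arm changes and called list members. The 8 measures adjusted together are the unscaled signal, share, probe ratio, 75th percentile, both spike-in sets, total signal and ratio to neighbours. Replicate numbers are not said to mark shared animals or days, and same-numbered samples did not all deviate together. Alternatives varied scaling, background, filter, floor, probe summary, moderation, block and samples.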

Additional observations from a re-analysis of the deposited data

Results flagged for a closer look

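In groups of 4, about 1 in 20 has a sample this far from the others by chance alone, and 3 such values were found. Many measures were searched in both groups, some of them versions of the same signal, so some such values arise by chance. The labelling spike-ins read 1847 fluorescence units in Akita sample 1 (geometric mean), against 1678 to 1681 in the other Akita samples. Feature Extraction's own total signal of miR-21a-5p was 2476 in control sample 4, against 1724 to 1794 in the other controls; that array alone used a computed effective feature size fraction of 0.794, where the other 7 used the default of 0.6, and its mean spot signal, used throughout the report, was not set apart by the same measure. The same total for miR-21a-3p was 1.43 in control sample 1 and 0.1, the listed minimum, in the other controls, while none of its probes was above background there. With the others all at the minimum, any higher value would be flagged, so the rate of 1 in 20 does not apply to it.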

How the results depend on the processing

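The log2 difference of miR-21a-5p was above 0 in 24 of 27 alternatives and called by limma in 6. It reversed with no scaling (-0.0394), with the labelling spike-ins (-0.0147) and with the hybridisation spike-ins (-0.0040), the last chosen after the data were seen; the median of all tested miRNAs moved with it. It passed the threshold with median scaling (0.23, adjusted p = 0.0494), cyclic loess (0.20, 0.0251), normexp background (0.20, 0.0255), the mean of log2 probe values (0.23, 0.0432), the authors' deposited table (0.20, 0.0382) and eBayes with a trend (0.23, 0.0359). In that deposited table the entry for blank spots differed by 0.34 between the groups, more than miR-21a-5p did. That entry reflects the authors' processing and no difference in signal. After normexp the median of all tested miRNAs was 0.13, against 0.06 in the reported setting, and miR-21a-5p lay 0.07 above it. Leaving out 1 sample gave 0.12 to 0.25, with the percentile scaling kept. The filter, floor, trend and block settings left the log2 difference at 0.23 by design. All these are counted in the 24 but do not test the choice of reference. The replicate block gave 0.23 (limma, adjusted p = 0.214). The correlations of same-numbered samples' deviations were 0.0960, -0.30, 0.34 and -0.35, which cannot decide whether the numbers mark pairs.

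The 20-base and 19-base probes of miR-21a-5p followed the sum. With no scaling they reversed to -0.0448 and -0.0308, with the labelling spike-ins to -0.0201 and -0.00611, and with the hybridisation spike-ins they were at -0.00946 and 0.00453. Both passed the threshold with cyclic loess (0.192 and 0.216), normexp (0.195 and 0.209) and eBayes with a trend (0.23 and 0.24), and the 19-base probe also with median (0.24) and quantile scaling (0.169). With 1 sample left out they gave 0.116 to 0.248 and 0.136 to 0.265, with 0 calls by limma.

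The share of miR-21a-5p differed by 0.0720 points with the brightest probe only (exact permutation p = 0.0571) and by 0.0771 to 0.105 with 1 sample left out (exact permutation p = 0.0571 without Akita sample 1, 3 or 4). Without miR-6366 and miR-3963 in the total it differed by 0.347.

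The number of called miRNAs, 42 as reported (24 higher, 18 lower), was 109 with no scaling (5 higher, 104 lower), 117 with labelling spike-ins (7, 110), 69 with hybridisation spike-ins (5, 64), 89 after normexp (81, 8), 14 where all probes set the percentile (10, 4), 6 with no filter, 9 with a floor 4 times higher, 21 with Feature Extraction's total signal, 25 with the replicate block (11, 14) and 18 to 37 with 1 sample left out. The split was 27 to 16 with median, 32 to 27 with quantile and 24 to 22 with cyclic loess scaling. The number of arrays on which miR-21a-3p was above background was 0, and 1 by Feature Extraction's total signal; that of miR-21c was 0 throughout. Fold changes of miR-21a-3p and miR-21c and the arm ratio have no value in the reported setting, so their alternatives were not run. The cause of these changes was not tested.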
